A study of Mus musculus with 16 samples.

Results

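The genes described here are the ribosome biogenesis and nucleolar factors of mouse CD8+ T cells. They were chosen by symbol, as every row of the RNA table named Utp, Nop or Rrp followed by a digit, every row starting with Polr1, and 20 further named genes, without pseudogene names. The rule found 51 of 13275 listed genes, 31 by pattern and 20 by name, and all 51 passed the filter on low counts and were tested. By known role they were 5 subunits of RNA polymerase I, 4 box C/D and 4 box H/ACA small nucleolar ribonucleoprotein (snoRNP) proteins, 19 factors of the small subunit processome, 16 large subunit assembly factors and 3 abundant nucleolar phosphoproteins.

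Positive and negative here mean CD8+ T cells of Pmel-LC3-GFP-RFP mice sorted as positive or negative for LC3-GFP, a reporter of autophagosomes. Pmel T cells bear a transgenic receptor against an antigen of melanocytes. Both sorts had 3 days of activation (αCD3 2 µg/ml, αCD28 2 µg/ml, IL2 100 IU/ml) and 24 h of CO treatment before sorting, which every group in vitro shares, and cells without CO were not analysed here. RNA was sequenced from 2 positive and 2 negative libraries, and chromatin accessibility was measured by ATAC-seq in another 2 positive and 2 negative libraries of sorted cells (in vitro). A further 4 positive and 4 negative ATAC libraries came from Vβ13+CD8+ cells sorted from B16-F10 melanomas of individual C57BL/6 mice. These mice had borne the tumour for 12 days when either population was transferred, and the cells were retrieved 15 days later (in vivo). Separate animals or cultures are not stated for the RNA replicates, so p-values measure the spread between these libraries, which may be technical. RNA totals ran from 15605902 to 17557628 counts in positive and from 14567540 to 15850657 in negative libraries. Of 10 CD8 T cell markers, 9 were listed, and Cd8a stood at 524 and 534 CPM (counts scaled to library size) in positive against 583 and 618 CPM in negative libraries.

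Ribosomes are built in the nucleolus. RNA polymerase I transcribes a long precursor of ribosomal RNA, guide snoRNPs methylate it (box C/D) or convert uridine to pseudouridine (box H/ACA), and the small subunit processome folds and cuts it. Separate sets of GTPases, helicases and scaffold proteins then assemble the large subunit. The pathway is induced when T cells are activated and grow, and many of its genes are known targets of the transcription factor MYC.

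Of the 51 members, 23 rose in LC3-GFP positive cells, 1 fell and 27 were not called by edgeR's quasi-likelihood test at an adjusted p under 0.05. The 23 were 45.1% of the members, against 11.3% of all 12022 genes tested that rose and 13.6% that fell. Among the 7289 genes whose mean level was at least that of the lowest member, 20.6 CPM, 15.4% rose and 16.2% fell. The changes were small, from 0.45 to -0.37 on the log2 scale with a member median of 0.17, against 0.00 for all genes tested. Both positive libraries lay above both negative ones for 37 members and below them for 4, against 30.6% and 31% of all genes, and the groups overlapped for 10. Scaled by library size alone, without TMM factors, 33 members rose and the same gene fell, against 2242 and 1203 of all 12022 genes. That setting moved the share of all calls that were higher to 65.1%, against 45.4%. Without positive replicate 2 there were 15 members that rose. Where a library is left out, its group has 1 library, which is assumed to vary like the pair that remains in the other group. DESeq2 called 16 members higher and 1 lower, against 5.97% and 8.44% of all genes.

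**Figure D1:**
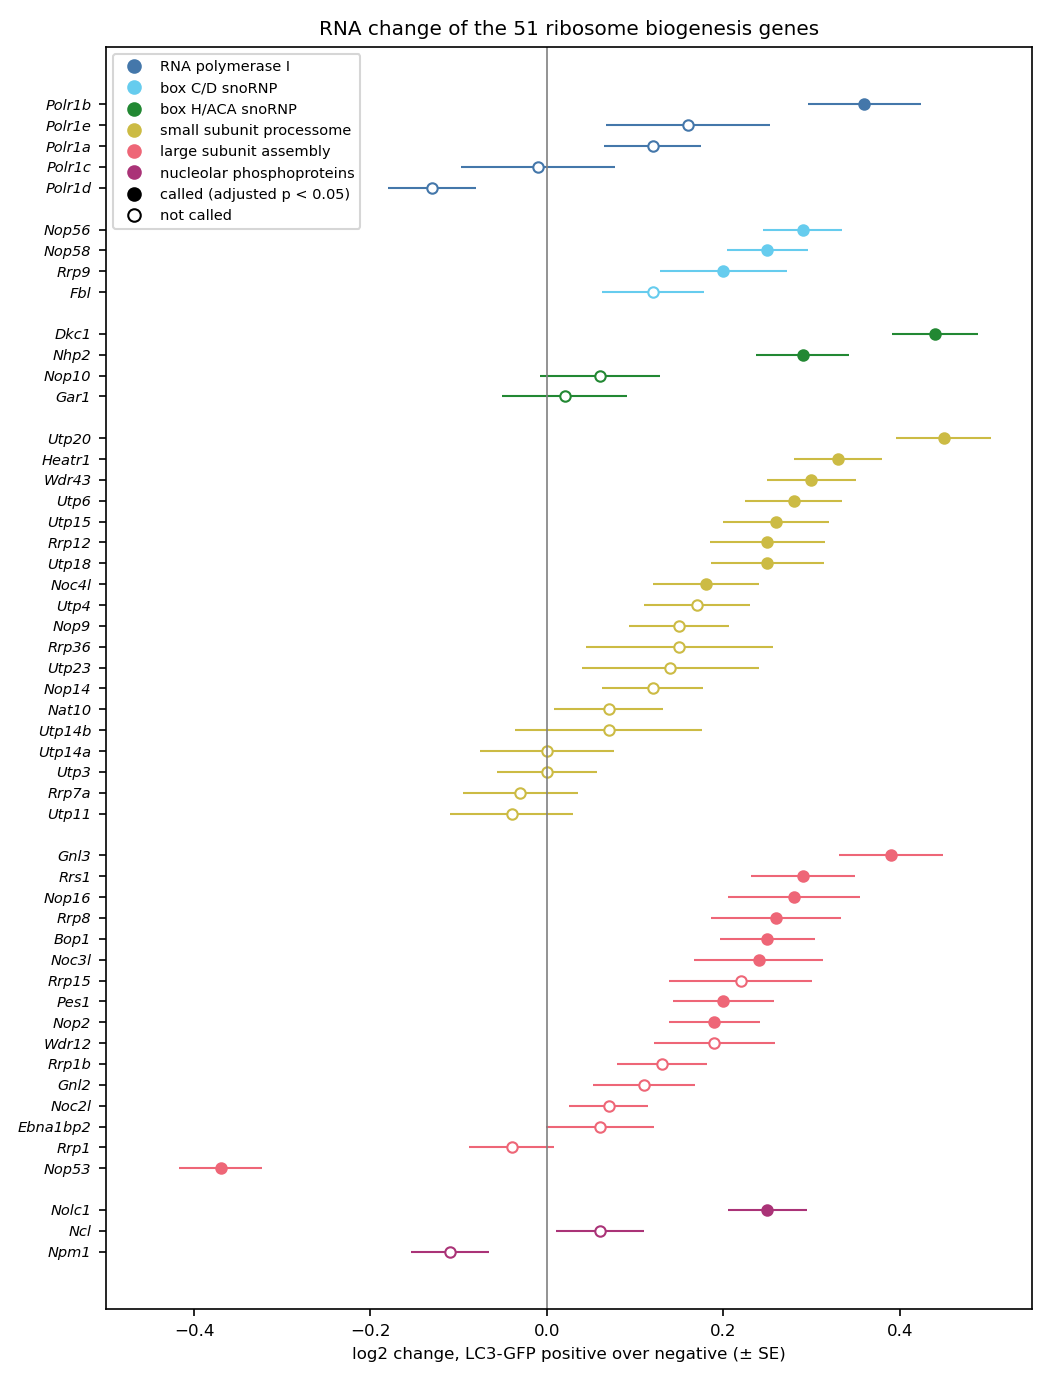
The log2 change in RNA of each of the 51 members (x axis, LC3-GFP positive over negative, bars ± SE from the edgeR fit), grouped by role; filled points passed an adjusted p of 0.05. The 23 filled points right of 0 and the single one left of it, Nop53 at -0.37, are the called members.

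The same libraries differed in other measured ways. Rn45s, the gene of the ribosomal RNA precursor, took 1.43% and 1.51% of counts in positive and 3.2% and 3.58% in negative libraries. It fell by 1.27 on the log2 scale (SE 0.059, adjusted p = 5.2e-11). Gene counts do not tell reads of the precursor from reads of ribosomal RNA cut from it. Without Rn45s, 23 members rose and 1 fell, as with it. The 6 listed of 8 B and plasma cell markers summed to 15.3 and 13.8 CPM in positive and 4.35 and 5.9 in negative libraries, with Ms4a1 at 1.39 and 0.753 CPM in positive and 0 and 0.0699 CPM in negative ones. Of these 6 markers 5 rose and 0 fell. NK cell markers, 3 listed of 4, summed to 37.3 and 38.4 against 102 and 95.6, and 2 of them fell. Eomes made up most of that sum, at 34.5 and 34.3 CPM in positive against 98.5 and 89.3 CPM in negative libraries. Klrb1c had 1.56 and 2.95 against 5.76 and 7.69 CPM, so the sum mainly gives the level of 1 gene. Markers of macrophages, monocytes and dendritic cells, 6 listed of 8, summed to 71.1 and 76.1 against 73.5 and 78.3, with 3 higher and 2 lower. H2-Ab1, most of that sum, fell (46.7 and 52.2 against 67 and 71.3 CPM), as did Cd68. Cd74 rose (16.3 and 14.6 against 0.841 and 1.33 CPM), as did H2-Aa and Mpeg1, so the sum hides changes in both directions. CD4 T cell markers summed to 90.4 and 85.9 against 116 and 106, with 1 higher and 2 lower. Cd4 itself rose (4.4 and 3.39 against 0.971 and 0.699 CPM), while Zbtb7b and Gata3, most of the sum, fell. The 9 CD8 T cell markers summed to 2820 and 2838 against 3019 and 3068, with 7 CD8 markers lower, or 5 by DESeq2. With library size alone Cd2, Cd3d, Cd3g and Cd8a had an adjusted p of 0.255, 0.0671, 0.212 and 0.051, while Cd3e, Cd8b1 and Runx3 stayed called. For melanocytes 1 of 5 markers was listed, at 1.08 and 1.67 against 1.89 and 1.92, and for erythroid cells 1 of 5, at 0.735 and 0.263 against 0.333 and 0.0805. Their part in the member changes was not tested. In such bulk libraries, fewer cells of a type and less RNA per cell cannot be told apart. Nor can it be told whether RNA of Eomes, Zbtb7b or Gata3 came from the listed cell type or from the CD8 T cells.

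**Figure D2:**
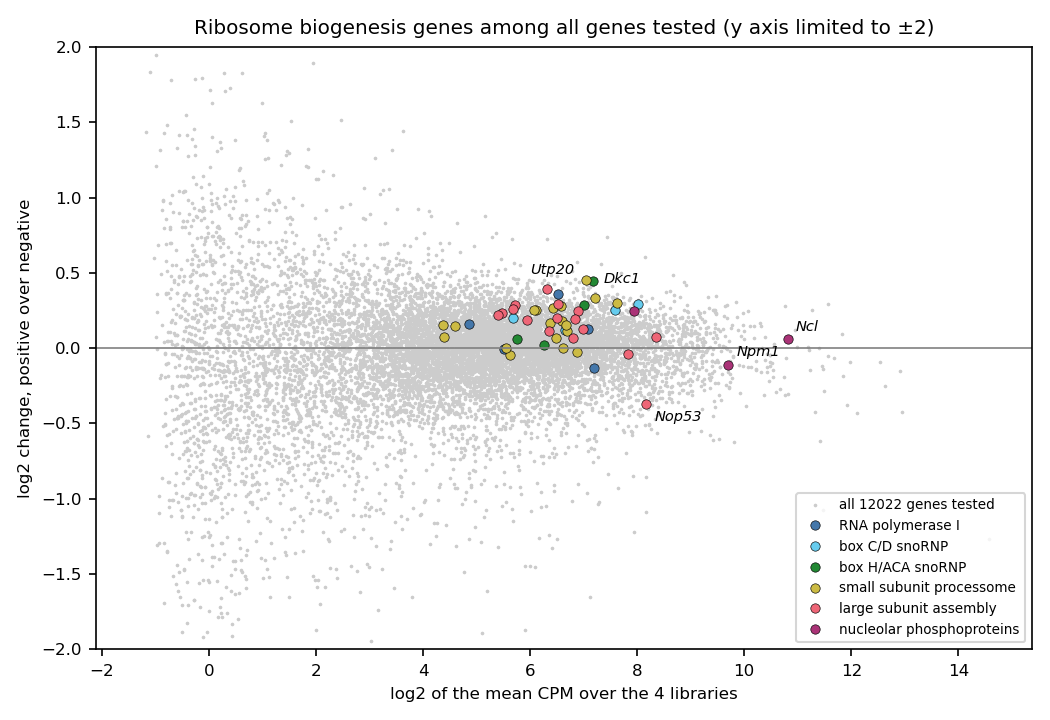
Log2 change in RNA (y axis, positive over negative, limited to 2 in either direction, which leaves 62 of 12022 genes outside) against log2 of the mean CPM over the 4 libraries (x axis). Members, in colour by role, sit mostly above 0, with Utp20 and Dkc1 highest and Nop53 lowest.

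RNA polymerase I was represented by 5 of its subunits, and 1 rose. Polr1b (chromosome 2, 129100996 to 129126595), which encodes a large subunit and part of the catalytic centre, had 103 and 102 CPM in positive against 74.8 and 85.3 CPM in negative libraries. The groups did not overlap, and Polr1b was 1.28-fold higher (log2 0.36, SE 0.064, adjusted p = 0.000427). Polr1a, which encodes the largest subunit, had 148 and 134 CPM against 130 and 129 CPM (log2 0.12, SE 0.055, adjusted p = 0.111). Polr1d, a subunit shared with RNA polymerase III, had 137 and 143 CPM against 153 and 153 CPM, below both negative libraries, and was not called (log2 -0.13, SE 0.050, adjusted p = 0.0651). Polr1e and Polr1c, of which Polr1c is also shared with RNA polymerase III, were not called (log2 0.16 and -0.01, SE 0.093 and 0.087). Subunits encoded by Twistnb, Cd3eap and Znrd1 carry other symbols in the table. Of these Twistnb, the Polr1f subunit, rose (58.4 and 59.2 CPM in positive against 44.3 and 46.7 CPM in negative libraries, log2 0.37, adjusted p = 0.000702), while Cd3eap and Znrd1 were not called (log2 0.20 and 0.19, adjusted p = 0.0786 and 0.208).

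The box C/D proteins were each above both negative libraries in both positive ones, and 3 of 4 rose. Nop56 and Nop58 encode the paired scaffold proteins of the particle. Nop56 had 284 and 287 CPM in positive against 229 and 236 CPM in negative libraries (log2 0.29, SE 0.045, adjusted p = 0.000114). Nop58 had 209 and 211 CPM against 176 and 177 CPM (log2 0.25, SE 0.046, adjusted p = 0.00062). For both genes the gap between groups was several times the gap between replicates. Rrp9, which binds the U3 snoRNA, had 57.4 and 52.6 CPM against 48.5 and 47.3 CPM (log2 0.20, adjusted p = 0.0495). Leaving out a library gave Rrp9 an adjusted p of 0.422 (positive replicate 1), 0.055 (positive replicate 2) or 0.0929 (negative replicate 2), and DESeq2 gave 0.215. Fbl, which encodes fibrillarin, the methyltransferase itself, had 109 and 100 CPM against 97.5 and 95.4 CPM and was not called (log2 0.12, SE 0.058, adjusted p = 0.146).

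In the box H/ACA particle, 2 of 4 proteins rose. Dkc1 (chromosome X, 75095854 to 75109776) encodes dyskerin, the pseudouridine synthase, which in humans is mutated in dyskeratosis congenita. It had 167 and 165 CPM in positive against 122 and 122 CPM in negative libraries, was 1.36-fold higher (log2 0.44, SE 0.049), and had the smallest adjusted p among the members, 3.5e-06. Nhp2, a core protein bound next to dyskerin, had 137 and 144 CPM against 117 and 113 CPM (log2 0.29, adjusted p = 0.000559). Nop10, a small protein that also binds dyskerin, had 55.7 and 54.5 CPM against 51.8 and 53.7 CPM (log2 0.06, SE 0.068, adjusted p = 0.544). Gar1, the fourth core protein, overlapped between the groups at 72.7 and 81.5 CPM against 71.5 and 80.3 CPM (log2 0.02, SE 0.071). Whether the 4 subunits changed by different amounts was not tested.

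**Figure D3:**
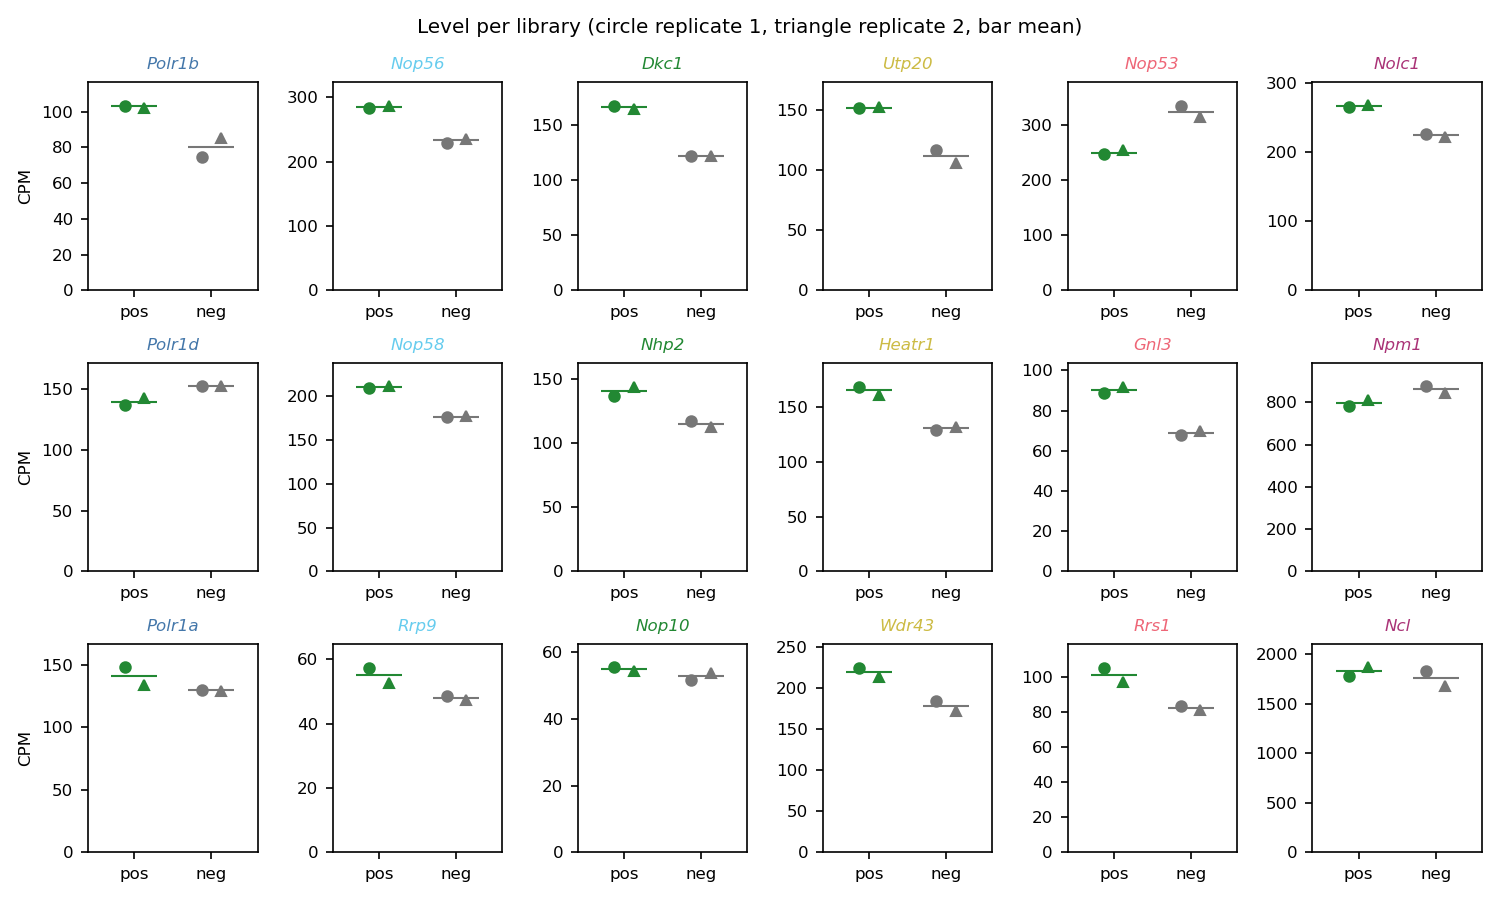
Level in CPM (y axis, from 0) in each RNA library for 18 members, the 3 with the smallest adjusted p in each role; positive libraries are left and negative ones right, with bars at the mean of 2. The groups separate by more than the gap between replicates for genes such as Dkc1 (167 and 165 against 122 and 122 CPM) and run the other way for Nop53.

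Of 19 small subunit processome factors 8 rose, 0 fell and 11 were not called. Utp20 (chromosome 10, 88746607 to 88826814), a long repeat protein of the processome, had the largest rise of all members. It had 152 and 153 CPM in positive against 117 and 106 CPM in negative libraries and was 1.37-fold higher (log2 0.45, SE 0.054, adjusted p = 9.47e-06). Heatr1, the counterpart of yeast Utp10 and likewise a repeat protein, had 168 and 161 CPM against 129 and 132 CPM (log2 0.33, SE 0.050, adjusted p = 9.37e-05). Wdr43, the counterpart of yeast Utp5, had 224 and 213 CPM against 184 and 172 CPM (log2 0.30, SE 0.050, adjusted p = 0.000266). In all 3 the lower positive library lay clearly above the higher negative one. Utp6, Utp15, Utp18, Rrp12 and Noc4l also rose, by 0.28, 0.26, 0.25, 0.25 and 0.18 on the log2 scale. Utp15 and Utp18 had an adjusted p of 0.0814 and 0.0848 without positive replicate 2, and Rrp12 of 0.183 without positive replicate 1. Noc4l had 0.247 and 0.0714 without positive replicates 1 and 2, 0.15 without negative replicate 2, and 0.134 by DESeq2.

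The 11 processome factors that were not called ran from 0.17 for Utp4 to -0.04 for Utp11 on the log2 scale. Utp4, whose human counterpart is cirhin, had 90.4 and 84.3 CPM in positive against 79 and 76.8 CPM in negative libraries (adjusted p = 0.0536). Nop9 and Nop14 had log2 changes of 0.15 and 0.12, and Rrp36 and Utp23, at 18.9 to 27.1 CPM in any library, 0.15 and 0.14 with SEs of 0.106 and 0.100. Nat10, the acetyltransferase of ribosomal RNA, overlapped between the groups (93.5 and 90.5 against 83.2 and 92.7 CPM, log2 0.07). So did Utp3 (95.1 and 100 against 99.7 and 95.1 CPM), Rrp7a, Utp14a and Utp14b. Utp14a and Utp14b are near copies. Both carried a count over 0.05 away from a whole number in at least 1 library, as did Ebna1bp2, Noc2l, Nolc1, Nop56, Npm1, Rrp1b and Rrp7a, so values of these 9 genes may include reads shared with another gene.

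Large subunit assembly factors held 8 of 16 members that rose and the single member that fell. Gnl3, which encodes the nucleolar GTPase nucleostemin, had 88.7 and 91.6 CPM in positive against 67.8 and 69.7 CPM in negative libraries (log2 0.39, SE 0.059, adjusted p = 0.000103). Rrs1, needed for an early step with the small ribosomal RNA of the large subunit, had 105 and 96.8 CPM against 83.2 and 81.3 CPM (log2 0.29, SE 0.059, adjusted p = 0.0013, or 0.0508 without positive replicate 1). Both genes separated the groups, Rrs1 with the wider spread among positive libraries. Bop1, Pes1 and Wdr12 form the PeBoW complex, and their log2 changes were 0.25, 0.20 and 0.19. Bop1 and Pes1 rose (adjusted p = 0.00249 and 0.0167) and Wdr12 was not called (adjusted p = 0.0565). Pes1 had an adjusted p of 0.0587 and 0.185 without positive replicates 1 and 2 and of 0.086 by DESeq2.

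Nop16, Rrp8, Noc3l and Nop2 rose as well, by 0.28, 0.26, 0.24 and 0.19 on the log2 scale, and DESeq2 called none of these 4 (adjusted p = 0.0543, 0.0824, 0.143 and 0.0576). Rrp8 and Nop2 are methyltransferases that act on ribosomal RNA of the large subunit. Nop16 had an adjusted p of 0.0934 and Rrp8 of 0.0672 without negative replicate 1, and Rrp8 of 0.176 without positive replicate 2. Noc3l had 0.179 and 0.0797 without positive replicates 1 and 2 and 0.0768 without negative replicate 1. Nop2 had 0.115 and 0.0778 without positive replicates 1 and 2. Rrp15, Rrp1b, Gnl2, Noc2l, Ebna1bp2 and Rrp1 were not called, with log2 changes of 0.22, 0.13, 0.11, 0.07, 0.06 and -0.04.

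Nop53 (chromosome 7, 15937836 to 15946108) was the exception. It encodes a nucleolar protein of the maturing large subunit, which in yeast recruits the RNA exosome to trim the precursor. Nop53 had 247 and 254 CPM in positive against 334 and 314 CPM in negative libraries, both positive ones below both negative ones. It was 1.29-fold lower (log2 -0.37, SE 0.047, adjusted p = 1.6e-05) and stayed called in every alternative run, with a log2 change of -0.31 with library size alone.

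Of the 3 abundant nucleolar phosphoproteins 1 rose. Nolc1, a chaperone of snoRNPs that moves between nucleolus and Cajal bodies, had 265 and 267 CPM in positive against 226 and 222 CPM in negative libraries (log2 0.25, SE 0.045, adjusted p = 0.000571). Ncl, which encodes nucleolin, had 1785 and 1874 CPM against 1835 and 1682 CPM, with overlapping groups (log2 0.06, SE 0.050, adjusted p = 0.449). Npm1, which encodes the nucleolar chaperone nucleophosmin, had 785 and 810 CPM against 878 and 844 CPM, below both negative libraries (log2 -0.11, SE 0.044, adjusted p = 0.0771). With 1 negative library left, and the spread taken from the positive pair, the adjusted p was 0.000413 for Npm1 without negative replicate 2 (log2 -0.14) and 0.000906 for Ncl without negative replicate 1 (log2 0.12), while the negative pair itself differed by 878 against 844 CPM for Npm1 and 1835 against 1682 CPM for Ncl.

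The other genes of the pathway, 125 tested genes listed by known role and not members, held 51 that rose (40.8%) and 2 that fell (1.6%). Of all genes tested 11.3% rose and 13.6% fell. The median log2 change of the 125 was 0.16, against 0.00 for all genes tested. By DESeq2 33 of the 125 were higher and 0 lower, against 5.97% and 8.44% of all genes. Of 31 further processome factors 14 rose and 0 fell, led by Wdr75 (89.9 and 83.6 CPM in positive against 65 and 68.8 CPM in negative libraries, log2 0.38, adjusted p = 0.000255). Of 40 further large subunit factors 22 rose and 1 fell. Urb1 rose by 0.39 (adjusted p = 0.000326), and Nsa2 fell by 0.18 on the log2 scale (adjusted p = 0.0238, or 0.514 without positive replicate 1, 0.131 with library size alone and 0.0679 by DESeq2). Among 14 RNA polymerase I cofactors and renamed subunits 4 rose, including Rrn3 and Ubtf, which recruit the polymerase to the ribosomal RNA genes. Ubtf had an adjusted p of 0.00385, or 0.079 without positive replicate 1. The 1 that fell was Baz2a, a subunit of a silencing complex of those genes (196 and 196 against 218 and 216 CPM, log2 -0.15, adjusted p = 0.0213). Baz2a had an adjusted p of 0.197 and 0.189 without positive replicates 1 and 2, 0.146 with library size alone and 0.0782 by DESeq2.

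Later and accessory steps were covered by 3 lists. Of 14 export and cytoplasmic maturation factors 5 rose and 0 fell, led by Pno1, a late small subunit factor (66.5 and 71.5 CPM in positive against 52.6 and 51.8 CPM in negative libraries, log2 0.40, adjusted p = 0.000252). Of 16 exosome genes 4 rose and 0 fell. Exosc6 had the largest of those rises (log2 0.30, adjusted p = 0.0205). Leaving out positive replicate 1 or negative replicate 2 gave Exosc6 an adjusted p of 0.174 or 0.143, and DESeq2 gave 0.101. DESeq2 called 1 of the 16 exosome genes higher, against 5.97% of all genes tested. Of 10 snoRNP assembly factors 2 rose and 0 fell, with Naf1, an assembly factor of box H/ACA particles, at 0.31 (adjusted p = 0.00551, or 0.0523 without negative replicate 1). The shares that rose were 35.7% for export and maturation, 25% for the exosome and 20% for snoRNP assembly. Among the 7289 genes at or above the lowest member's mean CPM, 15.4% rose. No difference between the lists, or from all genes, was tested.

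**Figure D4:**
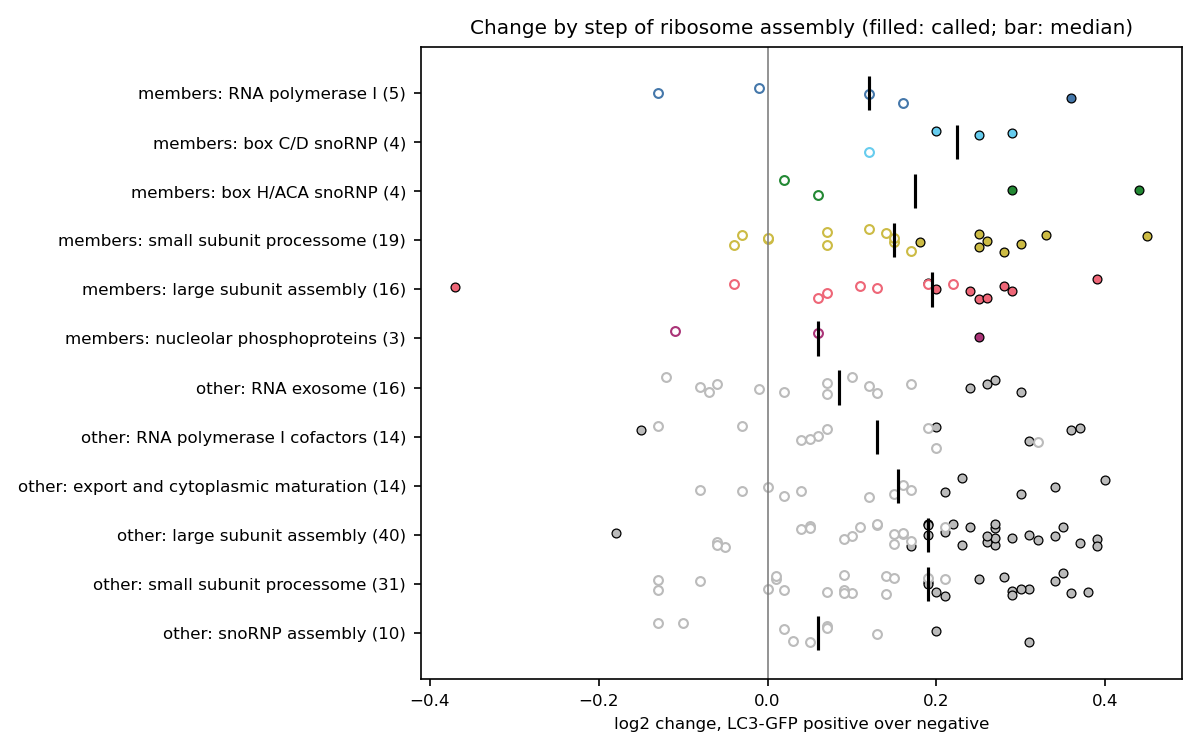
Log2 change in RNA (x axis, positive over negative) of members by role, in colour, and of the other pathway genes by list, in grey, with the number of genes in brackets; filled points passed an adjusted p of 0.05 and bars are medians. Points lie mainly right of 0 in the processome and large subunit lists. There the other genes had 14 of 31 and 22 of 40 higher, against 11.3% of all genes tested.

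Every member had an ATAC peak at its gene start in every library of both populations. A deposited ATAC peak overlapped the 500 bp on either side of the gene start for 51 of 51 members in each of the 4 in vitro and the 8 in vivo libraries. The share of all listed genes with such a peak in every library was 86.9% in vitro and 81.4% in vivo, and 96% and 94.6% among genes at or above the level of the lowest member. No member promoter had a peak in all libraries of 1 population and in none of the other. That pattern held for 0.542% (positive only) and 0.196% (negative only) of all genes in vitro and for 0.0151% and 0.211% in vivo. The test is coarse, since a peak can be present in all libraries and still differ in height, and the deposited values do not allow heights to be compared between libraries.

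Member peaks were ranked within each library's own list. By the authors' fold enrichment over local background, the median member peak stood at percentile 77.5 and 77.1 for positive and at 79.5 and 82.5 for negative cells in vitro. In vivo it ranged over 74.7 to 78.8 for positive and over 78 to 83.3 for negative cells. Most peaks of a list lie away from gene starts. The median for the start peaks of all genes was 73.1 and 74.3 for positive and 73.7 and 74.1 for negative cells in vitro. In vivo it was 69.5 to 71.9 for positive and 71.1 to 76.4 for negative cells, so this background also varied between libraries. It lay below the member median in each of the 12 libraries. Neither that difference nor one between the populations was tested. Median summits lay 17 to 128 bp inside the gene. The order among members was spread widely. The peak of Utp20 had a fold enrichment of 8.11 and 10.1 in positive and 9.13 and 10.3 in negative in vitro libraries, at percentile 97.9 or above in each of them. The peak of Nop53 had 4.18 and 3.99 in positive and 3.95 and 4.44 in negative libraries, at percentile 33.5 to 51.5. The peak of Gnl2, which was not called in RNA, stood at percentile 99.5 and 99.6 in positive and 99.9 and 99.5 in negative in vitro libraries. That of Nhp2, which rose, stood at 25.2 and 31.5 in positive and 33.8 and 25 in negative ones. Whether peak rank and RNA change go together was not tested. The peak of Nop10 stood at percentile 0.635 and 4.8 in positive and 6.38 and 3.02 in negative in vitro libraries, and with a stricter limit on the peaks (-log10 q of at least 5) it lacked a peak in positive replicate 1, the only member promoter without a peak in all 4 in vitro libraries under that limit.

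**Figure D5:**
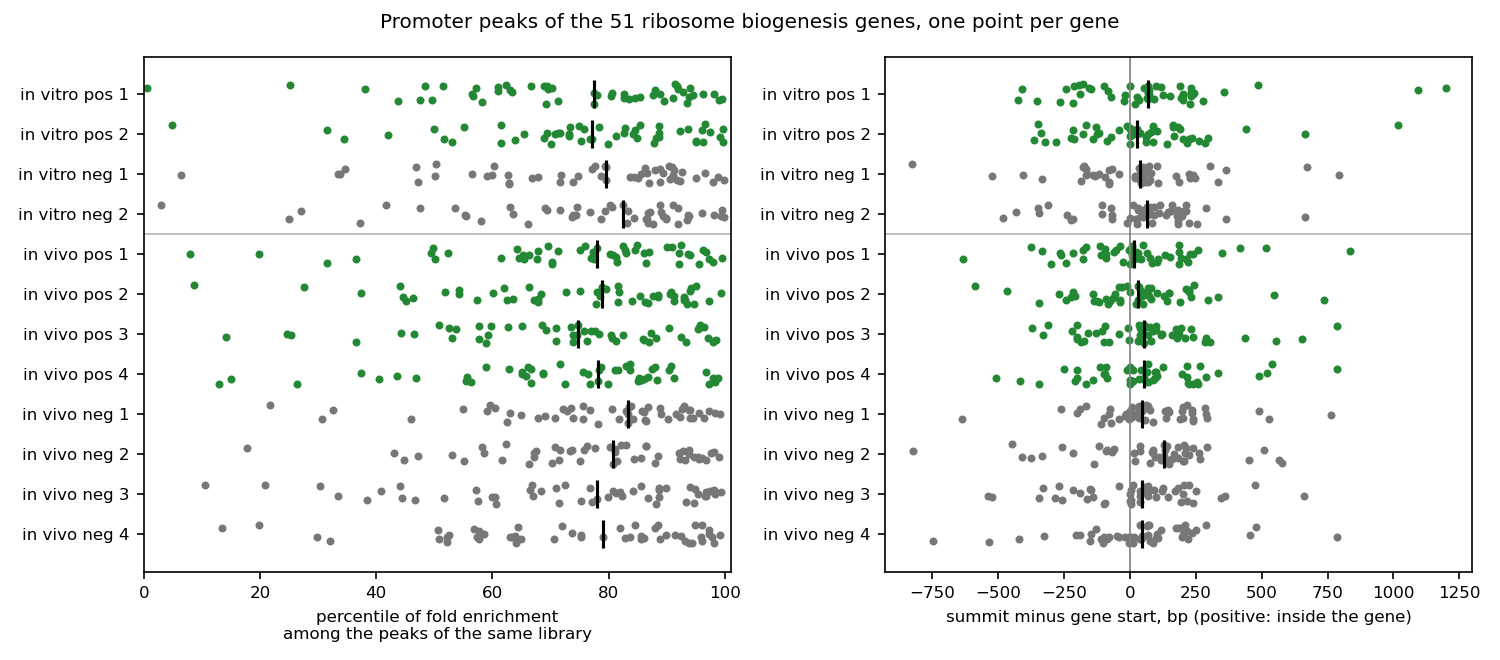
Promoter peaks of the 51 members in each of the 12 ATAC libraries, 1 point per gene: left, the percentile of the authors' fold enrichment among that library's peaks; right, the distance of the summit from the gene start in bp. Bars are medians, at percentile 74.7 to 83.3 and at 17 to 128 bp, and positive libraries are listed above negative ones in each experiment.

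Peaks were also merged into regions over gene bodies and 2000 bp before them. Of the member regions that did not touch the 500 bp on either side of the gene start, 20 of 46 (43.5%) were found in all in vitro libraries, against 46.3% for all genes, and 6 of 36 (16.7%) in all in vivo libraries, against 20.2%. The rest were, apart from the 4 in vitro regions named next, found in some but not all libraries with no clean split by population. Positive-only regions in vitro lay in 3 members, against 15.3% of all genes, and a negative-only region in 1, against 7.68%. The positive-only regions were in Utp20 (chromosome 10, 88802068 to 88802811, about 24375 bp inside the gene), Polr1a (chromosome 6, 71930154 to 71931172) and Gnl2 (chromosome 4, 125045299 to 125045840). The peaks of the Utp20 region had a fold enrichment of 5.68 and 4.11 in positive replicates 1 and 2, those of Polr1a 3.5 and 2.95, and those of Gnl2 2.54 and 4.65. In each of the 4 regions 1 of the 2 peaks lay under a -log10 q of 5, at 4.58 for Utp20, 3.25 for Polr1a, 1.9 for Gnl2 and 3.94 for Noc3l, so under the stricter limit none would have a peak in both libraries of its population. The negative-only region was in Noc3l (chromosome 19, 38812066 to 38812922), with 4.13 and 4.03 in negative replicates 1 and 2. Positions are as deposited, on mm10, and exons and introns were not used here. In vivo 0 members had a region of either kind, against 1.66% and 2.31% of all genes. At the Utp20 and Polr1a regions 1 of 8 in vivo libraries had a peak, negative replicate 2 in both cases, and at the Gnl2 and Noc3l regions 0 of 8 had one.

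Promoter sequences from RefSeq (GRCm38.p6, the assembly that mm10 names; 250 bases before and 50 after a gene start) were matched for 41 of 51 members, 40 of them within 500 bp of the deposited start. The letters CACGTG, the canonical E-box that MYC and MAX bind and the same on both strands, were in 7 of 40 member promoters (17.5%), against 1036 of 10058 for all genes (10.3%). Of the 19 matched members that rose, 5 held it (26.3%). In the bases before the start alone it was in 3 of 40 (7.5%), against 8.33% of all genes, so the member share is above that of all genes only where the bases after the start are included. The 7 windows of 30 bases are shown 5′ to 3′ on the gene's strand, with the E-box in capitals, because they mark where the motif lies relative to the start.
Utp20: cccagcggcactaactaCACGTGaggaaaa
Wdr43: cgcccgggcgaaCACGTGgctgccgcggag
Utp18: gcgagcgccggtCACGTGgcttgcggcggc
Nop2: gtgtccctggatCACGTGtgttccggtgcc
Pes1: ccctaggcagggCACGTGcgggaggaagta
Utp4: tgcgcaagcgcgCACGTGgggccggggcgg
Rrp7a: gtgcctgtgcacCACGTGtcctggaactgg
The windows are chr10:88826765-88826794 (minus strand) for Utp20, chr17:71616220-71616249 (plus) for Wdr43, chr11:93885769-93885798 (minus) for Utp18, chr6:125131811-125131840 (plus) for Nop2, chr11:3963965-3963994 (plus) for Pes1, chr8:106893643-106893672 (plus) for Utp4 and chr15:83122992-83123021 (minus) for Rrp7a. The first 5 genes rose and the last 2 were not called. The E-box began 60 bp before the start in Nop2, 20 bp before it in Utp18 and 208 bp before it in Rrp7a, and 2 to 37 bp after it in the other 4.

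The whole 250 bases before the start are given for the 3 members whose E-box lies there, 2 that rose and 1 that was not called, again with the E-box in capitals.
Utp18: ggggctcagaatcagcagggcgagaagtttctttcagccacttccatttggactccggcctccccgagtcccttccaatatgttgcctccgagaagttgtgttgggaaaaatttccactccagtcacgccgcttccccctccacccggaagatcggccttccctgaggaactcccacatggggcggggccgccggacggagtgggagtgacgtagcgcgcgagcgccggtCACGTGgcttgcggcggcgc
Nop2: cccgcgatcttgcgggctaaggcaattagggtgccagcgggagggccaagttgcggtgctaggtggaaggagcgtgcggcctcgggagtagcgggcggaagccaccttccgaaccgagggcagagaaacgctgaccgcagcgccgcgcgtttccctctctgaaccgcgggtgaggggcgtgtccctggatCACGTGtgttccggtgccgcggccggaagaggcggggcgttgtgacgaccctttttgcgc
Rrp7a: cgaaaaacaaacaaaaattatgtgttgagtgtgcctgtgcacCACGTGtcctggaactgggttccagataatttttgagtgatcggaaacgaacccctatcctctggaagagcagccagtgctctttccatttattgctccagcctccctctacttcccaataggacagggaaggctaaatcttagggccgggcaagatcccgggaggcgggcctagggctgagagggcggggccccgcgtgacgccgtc
These stretches are chr11:93885767-93886016 (minus strand), chr6:125131633-125131882 (plus) and chr15:83122802-83123051 (minus). Searched on both strands of the whole promoter sequence, the core CCGGAAG that ETS factors bind was in 15 of 40 member promoters (37.5%), against 18.7% of all genes, and in 6 of the 19 that rose (31.6%). The GC box GGGCGG was in 70% of member promoters and 64.7% of all, and the palindromic motif of NRF1 in 0 of 40, against 2.18% of all. Matches of different motifs may overlap. Median GC content was 57.2% in member and 60.7% in all promoters.

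Position showed 2 further features that the choice of members did not use. In 7 of 51 members (13.7%) RefSeq places a snoRNA gene inside the gene, against 2.23% of all listed genes. These hosts were Nop56 with 5 snoRNA genes (Snord57 and Snord110 among them), Nop58 with 4 (Snord11, Snord70), Gnl3 with 3 (Snord19, Snord69), Wdr43 with 3 (Snord53, Snord92), Ncl with 2 (Snora75, Snord82), Dkc1 with 1 and Nop53 with 1 (Snord23). Of the 7 hosts 5 rose, Nop53 fell and Ncl was not called, while 0 of their snoRNAs were listed in the RNA table. In 14 members (27.5%) another gene started within 500 bp and ran the other way on the opposite strand, against 11.6% of all genes. Of those 14 neighbours 4 rose and 0 fell, against 11.3% and 13.6% of all genes tested. Member and neighbour both rose in 2 pairs, Gnl3 with Pbrm1 (log2 0.39 and 0.23) and Noc4l with Ddx51 (log2 0.18 and 0.32). Of the 14 members themselves 7 rose, against 45.1% of all members, and no difference of hosts or pairs from the other members was tested.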

How the data were processed

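RNA was measured in 4 libraries and chromatin accessibility in 12. The authors deposited unscaled estimated counts for 13275 genes in 1 RNA table, in which 22.5% to 23.8% of values in a library were not whole (more than 1e-06 from a whole number), or 9.53% to 10.1% by more than 0.05. For RNA, STAR, DESeq2 and Partek are named per the submitters' processing notes, which for ATAC name BWA, MACS2, cutadapt and Partek, all with mm10. Versions, counting method, strandedness and any Tn5 shift are not given in the sources used here, so counts of near copies and overlapping genes are uncertain. Per the file headers, each deposited peak carries a pileup signal, a fold enrichment over local background, and -log10 of its p-value and q-value. Each peak names 1 library, so peaks were called per library, and the authors' values were used only within a library's list. ATAC depth is unknown from these lists, which hold 27406 to 63761 peaks per library.

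Counts were rounded, filtered with filterByExpr, scaled by TMM and tested with edgeR 4.0.16 (glmQLFit, glmQLFTest) on all 12022 genes kept. Adjusted p-values are Benjamini-Hochberg values, called under 0.05. DESeq2 1.42.0 was an alternative. CPM are on TMM-scaled library sizes, except sums over marker lists, which use the totals. CPM are not per length, so levels of members were not compared with each other. The marker sums and the cut at the lowest member's mean CPM do set genes side by side, and take no account of gene length. The SE of a log2 change is its size divided by the square root of the quasi-likelihood F. The fit was tested on simulated data. Replicates of a group differed by more than counting noise (chi-square per degree of freedom 2.13 for positive and 4.4 for negative). A count of 3 was 0.167 to 0.21 CPM. Gene starts came from the deposited positions and strands, whose stop lies just past the last base and was printed less 1. Promoter peaks were those overlapping 500 bp on either side of a start by at least 1 bp.

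Values per library are given for the 3 members with the smallest adjusted p in each role and for members that fell. In the other pathway lists the largest called change in each direction is named. Of these, Wdr75, Twistnb, Baz2a and Pno1 have values per library. Members whose call DESeq2 did not share are named. Further members are given after their values were seen. The members, lists and naming rule were chosen with earlier results of these data known, so no list was tested. Alternatives were other scalings, DESeq2, no filter, each library left out, the replicate number as a block, no Rn45s, and for peaks a stricter q-value, other windows and summits.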

Additional observations from a re-analysis of the deposited data

Results flagged for a closer look

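The median summit of the member promoter peaks lay 128 bp inside the gene in the library of in vivo negative replicate 2, far from the other 3 negative libraries, where it lay 44, 46 and 47 bp inside. This library also had the most peaks in vivo, 55171, against 33704 to 41435 in the other negative libraries, and it alone among the in vivo libraries had peaks at the Utp20 and Polr1a regions named above. Of 6 group values checked in this way, 1 was far from the others, and chance flags about 1 group in 20.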

How the results depend on the processing

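The number of members that rose was 23, 33 with library size alone, 16 by DESeq2, 23 with the size factors of DESeq2, with no filter on low counts and without Rn45s, and 15 to 25 with each library left out in turn. The number that fell was 1, and 1 to 3 with a library left out. The 12 genes Bop1, Dkc1, Gnl3, Heatr1, Nhp2, Nolc1, Nop56, Nop58, Polr1b, Utp20, Utp6 and Wdr43 rose in all of these settings. The labels do not state whether same-numbered positive and negative libraries were paired. The deviations of same-numbered libraries had a correlation of 0.0646 over 12022 genes. That value cannot exclude pairing, since noise in each gene lowers it. With the replicate number as a block 27 members rose and 3 fell, against 1667 and 1901 of all 12022 genes tested. Over all genes tested, library size alone called 2242 higher and 1203 lower, and DESeq2 called 718 and 1015. Of the other pathway genes, 51 rose and 2 fell. DESeq2 gave 33 and 0, library size alone 71 and 0, and leaving out a library 34 to 49 higher and 0 to 2 lower, with 34 without positive replicate 1 and 36 without positive replicate 2. A group left with 1 library is assumed to vary like the other pair. The causes of these differences were not tested. Member promoters with a peak in every library numbered 51 in vitro and 51 in vivo. With summits required inside the window the numbers were 46 and 45 (72.5% and 65.4% of all genes). Only negative libraries then counted for 1 promoter in vitro, that of Nop10 (0.798% of all genes). Nop10 has a peak at its start in all 4 libraries, but the positive summits lie 1198 and 1018 bp after the start, past the end of the gene. The share of member promoters with the E-box was 17.5%, and 7.5% in the bases before the start alone.

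Some uncalled members changed sign. With library size alone Polr1c, Rrp1, Rrp7a, Utp11 and Utp14a had log2 changes of 0.055, 0.021, 0.033, 0.018 and 0.059, against negative values with TMM scaling. With each library left out, the range was -0.024 to 0.163 for Ebna1bp2, -0.062 to 0.106 for Gar1, -0.010 to 0.145 for Nat10 and -0.005 to 0.121 for Ncl. It was -0.148 to 0.154 for Polr1c, -0.093 to 0.014 for Rrp1, -0.144 to 0.099 for Rrp7a and -0.068 to 0.065 for Utp14a. For Utp14b it was -0.005 to 0.159 and for Utp3 -0.033 to 0.043. With 2 libraries a group and SEs of 0.044 to 0.106, no member with a log2 change of 0.17 or less in size was called. No p was taken from the peak lists, which carry no common measure of height.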
